A study of Mus musculus with 6 samples.

Results

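RNA of C2C12 cells, an established mouse myoblast line, was measured on 6 Affymetrix whole-transcript arrays, 1 array per culture condition, and 2 of the 6 arrays carry the comparison described here. It sets cells kept in 2% differentiation medium with BTZ against cells kept in 2% differentiation medium alone. Both cultures were grown in 10% FBS, moved to differentiation medium and harvested on day 5, and BTZ was added at 10 nM on day 4. The other 4 arrays are differentiation medium with TNF-α at 50 ng/ml from day 4 to day 5, and growth medium with 10% FBS plus 10 nM BTZ for 24 h, plus TNF-α at 50 ng/ml for 24 h, or untreated. BTZ is not spelled out in the labels; it is the usual short name of bortezomib, an inhibitor of the proteasome. Each group was 1 culture on 1 array, so no difference here has an error or a p-value, and each is the difference of 2 log2 signals.

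The proteasome is a barrel-shaped protease of alpha and beta rings, capped by a regulatory particle of ATPases and other subunits that unfold proteins tagged with ubiquitin. When it is blocked, cells are known to make more proteasome subunits through the factor NRF1, to make chaperones through heat shock factors, to start the integrated stress response through ATF4 and to start antioxidant genes through NRF2. Myoblasts that leave growth medium stop dividing, switch on MyoD and myogenin, fuse and build sarcomeres. Turnover of proteins by the proteasome takes part in that program and in the wasting of muscle.

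The untreated array in differentiation medium carried the markers of differentiating muscle cells. Myogenin, Myog, read 10.90 log2 units there and 6.71 in untreated growth medium. Embryonic myosin heavy chain, Myh3, read 11.05 and 4.38 on the same 2 arrays, and the fetal acetylcholine receptor subunit Chrng read 10.99 and 5.25. Muscle creatine kinase, Ckm, was dim, at 6.42 in untreated differentiation medium, and its 2 probe sets disagreed by 1.68 log2 units in the BTZ comparison. The label "myoblasts" in the sample records is given to all 6 arrays, and nothing in the sources used here says what share of the nuclei were in fused myotubes. The 6 arrays had medians between 5.01 and 5.11 log2 units. Genes were used where their highest array reached 5.06, the median of all values, called the floor below, which left 13652 of 22180 genes.

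Markers of other cell types were mostly under the floor. None of 8 endothelial markers reached it, against 3 of 9 macrophage, 2 of 6 osteoblast, 6 of 9 adipocyte and 4 of 6 neuronal and Schwann cell markers. Their levels ran, over all 38 of these genes, from 3.26 to 8.68 on the BTZ array and from 3.22 to 7.31 on the untreated one. Of the 15 above the floor, Cd14, a receptor for bacterial lipopolysaccharide, read 7.75 with BTZ and 5.95 untreated. Tubb3, a tubulin typical of neurons, read 8.68 with BTZ and 7.31 untreated. The other 13 differed by less than 2-fold. Among them were the macrophage markers Cd68, at 6.24 with BTZ against 5.63 untreated, and Csf1r, at 4.84 against 4.74. In growth medium Cd68 read 7.74 with BTZ and 6.57 untreated. Of the same list, Ptprc, Adgre1 and Itgam were under the floor on all 6 arrays. Whether the levels of these markers have a part in the results below was not tested.

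In differentiation medium 826 genes were at least 2-fold higher with BTZ and 1216 at least 2-fold lower, 6.05% and 8.91% of the 13652 genes, so 15.0% passed 2-fold in either direction. The median difference over all genes was 0.003 log2 units. At 4-fold the counts were 96 higher and 293 lower, and at 8-fold they were 16 and 83. The lower side held more of the large differences. Of the higher genes 79 were under the floor on the untreated array, and of the lower genes 233 were under it on the BTZ array. Signals there may hold little more than background, so these fold changes are less certain.

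Leaving out predicted genes, small RNAs and chemosensory receptors, the 12 highest and 12 lowest differences were taken by name. Among the highest, Ptprn, a tyrosine phosphatase-like protein of secretory granules, read 9.33 with BTZ and 4.96 untreated, 20.6-fold higher. Plaur, the urokinase receptor, read 8.87 with BTZ against 5.15 untreated. Tpsab1, a mast cell tryptase, read 8.84 with BTZ against 5.13 untreated. These 3 were near or under the floor on the untreated array of differentiation medium. In untreated growth medium Ptprn, Plaur and Tpsab1 read 6.72, 8.44 and 5.53. The others included the stress genes Atf3, Hspa1b and Cth, described further on, and Blvrb, biliverdin reductase B, at 10.32 with BTZ and 6.90 untreated. Mlkl, the executioner of necroptosis, read 10.79 with BTZ against 7.55 untreated. The remaining genes, Ifi202b, Havcr2, Fam171b and Mocos, were higher by 3.19 to 3.30 log2 units.

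Among the 12 lowest, Crip1, a LIM-domain protein, read 4.59 with BTZ and 10.90 untreated, 78.9-fold lower. Its BTZ level was under the floor, so the size of this fold change is uncertain. Car3, the muscle carbonic anhydrase, read 5.17 with BTZ against 10.33 untreated. Islr read 5.96 with BTZ against 11.11 untreated. The 12 also held 4 genes of muscle contraction and excitation, namely Chrng, the calcium pump Atp2a1, cardiac actin Actc1 and sarcalumenin, Srl. Matrix and secreted proteins made up others. The secreted C1qtnf3 read 7.71 with BTZ against 12.46 untreated. Matrix Gla protein, Mgp, read 8.25 with BTZ against 12.74 untreated. The membrane glycoprotein Cd200 read 4.44 with BTZ, also under the floor, and 8.78 untreated.

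**Figure D1:**
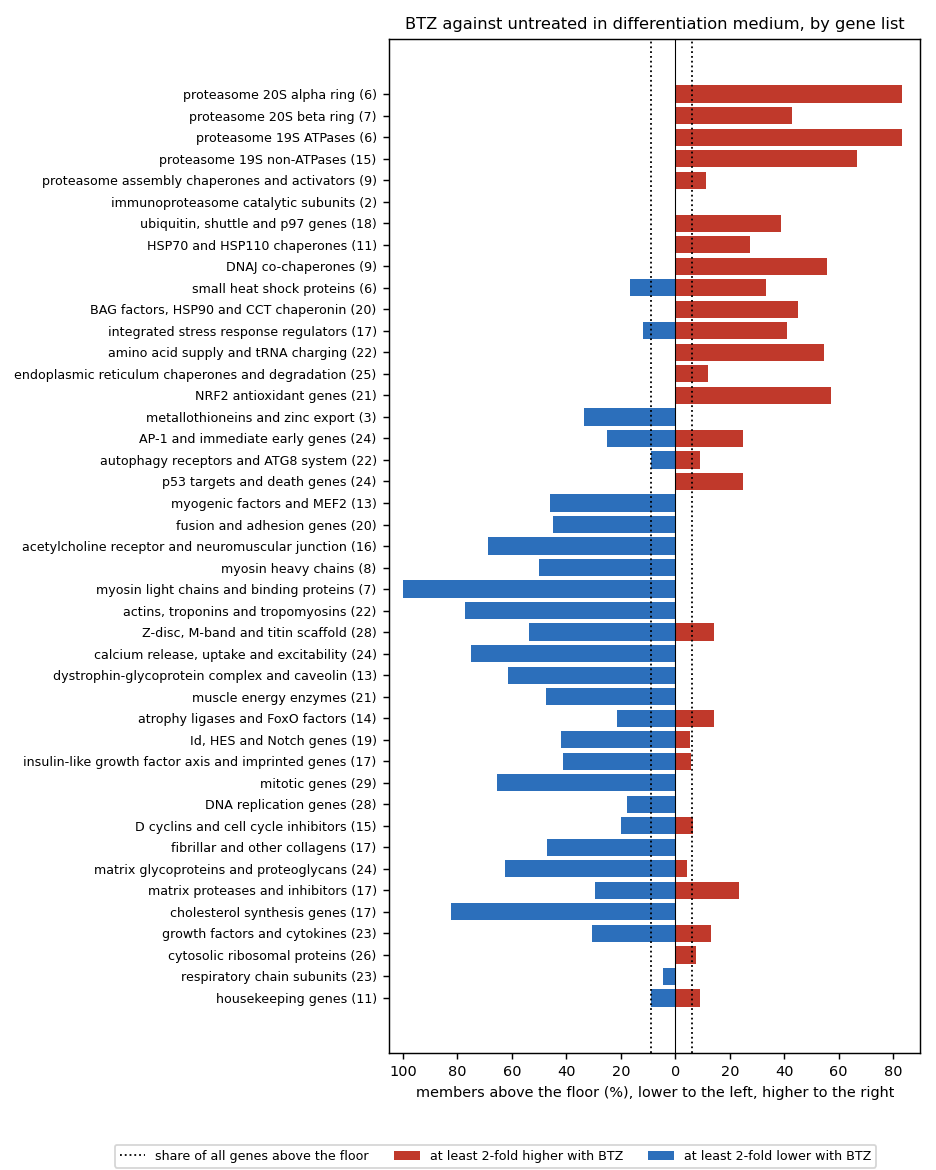
Bars give the percent of the members above the floor, with their number in brackets, that were at least 2-fold higher (right, red) or lower (left, blue) with BTZ in differentiation medium. The dotted lines are the shares over all genes, 6.05% and 8.91%. Proteasome, chaperone, amino acid and NRF2 lists lie to the right, and muscle, mitotic, matrix and cholesterol lists to the left.

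Genes of 48 lists were read as groups, the 5 of other cell types included, each beside those shares of all genes. Counts and medians of a list cover its members above the floor, and a member that passed only through the array where it is high had to differ. The lists of protein quality control and stress held 264 genes above the floor, 96 of them higher by 2-fold or more and 12 lower, and the median was 0.71. The muscle lists held 222 genes, 8 higher and 123 lower, and the median was -1.12. They were taken to include the list of Id, HES and Notch genes and that of the insulin-like growth factor axis and imprinted genes. The lists for cell cycle, matrix, metabolism and secreted factors held 228 genes, 12 higher and 78 lower, and the median was -0.53.

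Subunits of the proteasome itself were higher with BTZ almost throughout. In the 20S alpha ring, which gates the barrel, 5 of 6 measured genes were at least 2-fold higher, and the list median was 1.14. Psma1 read 9.79 with BTZ and 7.96 untreated, 3.55-fold higher, and Psma7 read 11.14 with BTZ against 9.63 untreated. Psma6, at 9.77 with BTZ against 9.06 untreated, was the one below 2-fold. In the beta ring, which holds the active sites, 3 of 7 passed 2-fold, led by Psmb2 at 10.17 with BTZ against 8.46 untreated. Psmb5, the chymotrypsin-like subunit that bortezomib binds, read 9.74 with BTZ and 8.92 untreated, a difference of 0.83.

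In the 19S cap, 5 of 6 ATPases and 10 of 15 other genes listed with it were at least 2-fold higher, with medians of 1.14 and 1.17. The latter list holds Psmd5, a factor of cap assembly, higher by 1.34. Psmc5 read 9.62 with BTZ and 8.31 untreated. Psmc3 read 9.59 with BTZ against 9.39 untreated and was the ATPase that did not pass 2-fold. Psmd14, the deubiquitinase of the lid, read 9.50 with BTZ against 7.69 untreated. The ubiquitin receptor Psmd4 read 10.35 with BTZ against 8.70 untreated. None of the measured subunits of the rings and the cap was 2-fold lower. The separate list of assembly chaperones and activators, without Psmd5, had 1 of 9 past 2-fold and a median of -0.13. That one was Psme4, the activator PA200, at 10.89 with BTZ and 9.62 untreated. The maturation factor Pomp read 10.35 with BTZ against 9.43 untreated. The immunoproteasome subunits Psmb8 and Psmb10 read 5.24 and 6.48 with BTZ, 6.49 and 9.66 with TNF-α, and 5.31 and 6.87 untreated.

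Among genes for ubiquitin handling and the p97 segregase, 7 of 18 were higher by 2-fold or more and none lower. Zfand2a, a zinc finger protein that associates with the proteasome under stress, read 11.16 with BTZ and 8.90 untreated. The p97 cofactors Ufd1 and Nploc4 read 10.60 and 11.84 with BTZ, against 8.59 and 10.37 untreated. The deubiquitinases Usp14 and Usp5 differed by 1.52 and 1.22, and the shuttle protein Ubqln1 by 1.40. Nfe2l1, the gene of NRF1, read 8.83 with BTZ and 9.20 untreated, so its RNA was not higher.

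Many genes of cytosolic chaperones were higher as well. The inducible HSP70 gene Hspa1b read 11.25 with BTZ and 7.84 untreated, 10.6-fold higher, and Hsph1, its HSP110 nucleotide exchange factor, read 12.06 with BTZ against 9.29 untreated. Together with Hspa1a these were the 3 of 11 HSP70 and HSP110 genes past 2-fold. The constitutive Hspa8 was higher by 0.99, just short of 2-fold. Of the DNAJ co-chaperones, which hand substrates to HSP70, 5 of 9 passed 2-fold, led by Dnajb1 at 11.31 with BTZ and 8.53 untreated. Dnajb5 was lower by 0.94, at 6.41 with BTZ against 7.35 untreated.

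Of the small heat shock proteins 2 of 6 were higher by 2-fold or more and 1 lower. The crystallin Cryab read 11.48 with BTZ and 8.98 untreated. Hspb1 read 8.29 with BTZ against 6.48 untreated. Hspb7, a form of heart and skeletal muscle, went the other way, at 6.25 with BTZ against 7.32 untreated. Of the BAG factors, HSP90 partners and chaperonin genes, 9 of 20 were higher and none lower. Hspd1 and Hspe1, the mitochondrial chaperonin and its lid, read 11.10 and 9.64 with BTZ, against 9.07 and 8.06 untreated. The heat shock factor gene Hsf2 read 9.41 with BTZ against 7.57 untreated. The co-chaperone Stip1 read 11.46 with BTZ against 9.69 untreated, and Bag3, which links HSP70 to autophagy, was higher by 1.56.

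Heat shock factors bind arrays of the unit GAA in alternating orientation. The motif of 3 units, which is GAA, any 2 bases, TTC, any 2 bases and GAA, searched on both strands with overlaps counted, lay in 7 of 54 promoter windows of the chaperone genes, 13.0%, against 0.603% of all 32851 windows of the same length in the RefSeq table (GRCm38.p6). The windows run from 250 bases before a start site to 50 bases from it. None of the 30 windows of the proteasome genes held it. One of the Hspd1 windows is shown because 2 overlapping matches fall in it. It is chr1:55087883-55088182 on the minus strand, and capitals mark the matches, whose first bases lie 144 and 139 bases before the start.
Hspd1: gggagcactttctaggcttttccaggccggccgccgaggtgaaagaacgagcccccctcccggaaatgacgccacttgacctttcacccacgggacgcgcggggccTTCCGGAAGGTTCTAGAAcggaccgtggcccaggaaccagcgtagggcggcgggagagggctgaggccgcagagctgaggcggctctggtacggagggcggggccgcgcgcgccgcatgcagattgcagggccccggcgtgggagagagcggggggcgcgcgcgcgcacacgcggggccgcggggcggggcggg
A match describes these letters and not a bound site.

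Regulators of the integrated stress response were split. Of 17 measured genes 7 were higher by 2-fold or more and 2 lower, and the median was 0.83. The repressor Atf3 read 10.10 with BTZ and 6.60 untreated, 11.3-fold higher. Ppp1r15a, which lifts the block on translation, read 9.26 with BTZ against 6.52 untreated. Ddit3, the gene of CHOP, read 9.73 with BTZ against 7.09 untreated. Atf4 itself, whose protein is controlled mainly at translation, read 10.55 with BTZ against 9.61 untreated, a difference of 0.94. Trib3 and Sesn2 were higher by 2.45 and 2.49. The hormone gene Fgf21 and the lipoprotein receptor gene Vldlr were the exceptions, at 5.54 and 5.89 with BTZ against 7.50 and 7.34 untreated.

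Genes that supply amino acids and charge tRNA were higher in 12 of 22 cases and lower in none, with a median of 1.05. Cth, which makes cysteine from cystathionine, read 7.55 with BTZ and 4.39 untreated, under the floor. The cystine carrier gene Slc7a11 was higher by 3.05 as the mean of 2 probe sets that gave 1.05 and 5.04. Both genes serve the supply of cysteine. The mitochondrial folate enzyme Aldh1l2 read 9.84 with BTZ against 6.82 untreated. The tryptophanyl-tRNA synthetase Wars read 10.66 with BTZ against 8.80 untreated. The serine enzyme Psph read 8.99 with BTZ against 7.53 untreated. Slc3a2, the partner chain of the Slc7a11 carrier, was higher by 1.39.

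The composite site of ATF4 and C/EBP proteins, spelled TGATGNAA and searched on both strands, lay in 27.0% of the 37 windows of these lists, against 3.97% of all windows. Windows of all genes at least 2-fold higher with BTZ held it in only 3.62%. For genes above the floor the share was 2.41%, and for genes at least 2-fold lower it was 2.32%. The high share thus belongs to these lists and not to the higher genes as a whole. The Atf3 window holds 1 match, shown in capitals on the reverse strand, whose first base lies 110 bases before the start. The window is chr1:191183284-191183583 on the minus strand.
Atf3: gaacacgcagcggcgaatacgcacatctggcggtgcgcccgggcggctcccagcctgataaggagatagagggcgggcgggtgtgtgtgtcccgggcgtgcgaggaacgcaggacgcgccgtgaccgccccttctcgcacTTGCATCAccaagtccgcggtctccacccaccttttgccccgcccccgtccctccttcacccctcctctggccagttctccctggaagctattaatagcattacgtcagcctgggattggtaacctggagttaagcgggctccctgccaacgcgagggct
The gene with this window was among the 12 highest with BTZ.

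Genes of the endoplasmic reticulum differed less than those of the cytosol. Of 27 measured genes 25 were above the floor, and 3 of these were at least 2-fold higher, with a median of 0.23. The lumenal HSP70, Hspa5, read 11.72 with BTZ and 9.73 untreated. The sensor gene Ern1 read 9.43 with BTZ against 7.81 untreated. The oxidase gene Ero1a read 8.73 with BTZ against 7.60 untreated. Xbp1, whose RNA is spliced by the Ern1 protein, read 9.69 with BTZ against 9.80 untreated, and an array of this kind, read per gene, does not show splicing. The HSP90 of the lumen, Hsp90b1, was higher by 0.88, and the disulfide isomerase gene P4hb lower by 0.91.

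Antioxidant genes under NRF2 had the highest median of the 48 lists, 1.52, with 12 of 21 higher by 2-fold or more and none lower. Heme oxygenase, Hmox1, read 11.46 with BTZ and 8.53 untreated, 7.64-fold higher. Gclm, the modifier subunit of glutathione synthesis, read 10.32 with BTZ against 7.63 untreated. Srxn1, which repairs oxidised peroxiredoxins, read 10.34 with BTZ against 7.67 untreated. These 3 serve heme breakdown, glutathione synthesis and thiol repair. The exporter gene Abcc4 read 8.72 with BTZ against 6.11 untreated. Nqo1, a quinone reductase and classic target of NRF2, read 8.03 with BTZ against 5.97 untreated. The NRF2 gene Nfe2l2 itself read 10.10 with BTZ and 10.14 untreated. The metallothioneins, which bind zinc and copper, did not share this direction: Mt1 and Mt2 read 10.30 and 10.45 with BTZ, against 11.21 and 11.88 untreated.

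The core of the antioxidant response element, spelled TGACNNNGC and searched on both strands, lay in 34.8% of the 23 windows of these genes, against 12.4% of all windows. Other lists held it too, with 25.0% in cholesterol synthesis windows and 24.3% in those of the integrated stress response and amino acid supply. Proteasome windows held it in 6 of 30 cases. Windows of genes at least 2-fold higher with BTZ held it in 14.6%, near the 13.3% of genes at least 2-fold lower. Among genes above the floor 1884 of 13428 windows held it, a share between those of the higher and lower genes. The motif thus hardly set the higher genes apart as a whole. The Gclm window is shown with its match in capitals on the reverse strand, 134 bases before the start. It is chr3:122245307-122245606 on the plus strand.
Gclm: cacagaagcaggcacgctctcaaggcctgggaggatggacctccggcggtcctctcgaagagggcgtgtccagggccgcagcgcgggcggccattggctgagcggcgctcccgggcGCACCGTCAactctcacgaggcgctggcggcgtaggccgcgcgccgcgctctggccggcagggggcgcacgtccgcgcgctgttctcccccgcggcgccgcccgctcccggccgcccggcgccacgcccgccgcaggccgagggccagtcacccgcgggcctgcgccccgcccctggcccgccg
Gclm was 6.41-fold higher with BTZ.

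**Figure D2:**
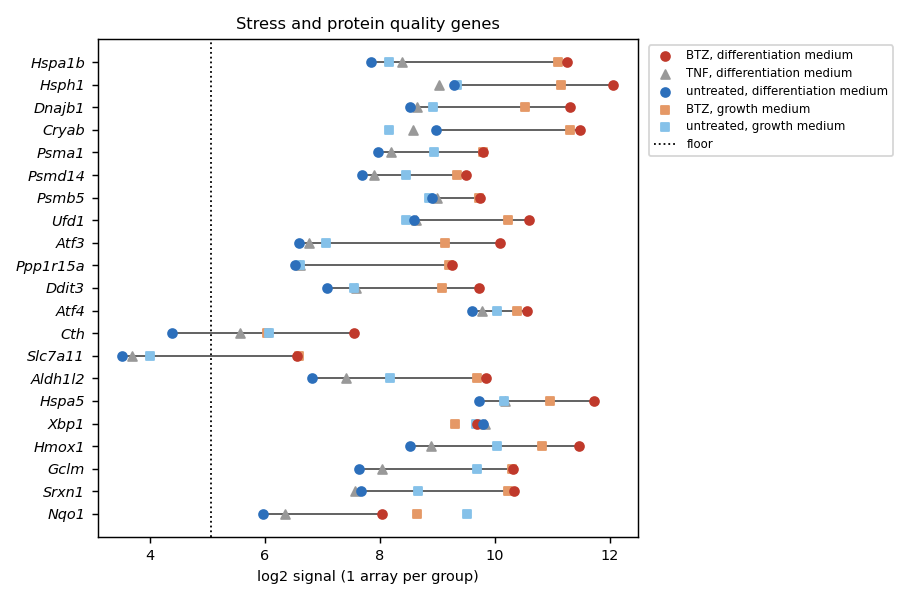
Log2 signal of 21 stress and protein quality genes on 5 arrays, 1 point per array, with a line joining the BTZ and untreated arrays of differentiation medium. BTZ points (red circles) lie right of the untreated ones (blue circles) for all genes but Xbp1, at 9.69 with BTZ against 9.80 untreated. For Cth and Nqo1 the untreated growth medium array (light blue squares) is at 6.07 and 9.52, level with or above BTZ in that medium.

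Immediate early genes went both ways, with 6 of 24 higher by 2-fold or more and 6 lower. The 6 lower genes were Fos, Egr1, Egr2, Egr3, Junb and Klf2, all of them transcription factors. Fos read 6.19 with BTZ and 8.61 untreated. Egr1 read 6.97 with BTZ against 9.29 untreated. Junb read 7.72 with BTZ against 9.60 untreated. The small Maf factor genes Mafg and Mafk were higher, by 1.37 and 1.33. The feedback phosphatase genes Dusp4 and Dusp5 were higher, at 9.40 and 8.73 with BTZ against 7.19 and 6.59 untreated. Ier3, a survival gene, read 11.27 with BTZ against 9.02 untreated. The list median was 0.07.

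Of the autophagy genes 2 of 22 were higher by 2-fold or more and 2 lower, against 6.05% and 8.91% of all genes. The list thus lay near those shares. The cargo receptor gene Sqstm1, whose protein p62 carries ubiquitin-tagged proteins to autophagosomes, read 12.55 with BTZ and 10.88 untreated. Gabarapl1, of the ATG8 family, read 10.10 with BTZ against 8.37 untreated. Its relative Map1lc3a read 6.24 with BTZ against 7.61 untreated. The receptor gene Calcoco1 was lower by 1.62, at 9.08 with BTZ against 10.70 untreated.

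Of 24 p53 targets and death genes 6 were higher by 2-fold or more and none lower. The death receptor gene Tnfrsf10b read 10.74 with BTZ and 8.29 untreated. The kinase Plk3 read 9.39 with BTZ against 6.58 untreated. Mdm2, the ubiquitin ligase of p53, read 11.12 with BTZ against 9.22 untreated. Tnfrsf10b and Mdm2 are known targets of p53. Gadd45g read 11.37 with BTZ against 9.31 untreated. Cdkn1a, the p21 inhibitor that is high in myotubes, read 11.54 with BTZ and 12.38 untreated in differentiation medium, and 10.50 with BTZ and 9.06 untreated in growth medium.

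Many genes of the muscle program were lower with BTZ, in lists that reach from transcription factors to the sarcomere. Of 13 myogenic and MEF2 genes 6 were lower by 2-fold or more and none higher. Myogenin, Myog, read 6.93 with BTZ, 10.59 with TNF-α and 10.90 untreated, so the BTZ array lay near the 6.71 of untreated growth medium. Myod1 read 6.83 with BTZ and 9.73 untreated, below its level of 8.12 in untreated growth medium. Myf5 differed little, at 7.66 with BTZ against 7.88 untreated. Mef2c read 5.08 with BTZ against 6.58 untreated, with differences of -2.41 and -0.59 for its 2 probe sets. In RNA from a whole culture, fewer cells of a type and less RNA per cell cannot be told apart.

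Of 20 fusion and adhesion genes 9 were lower by 2-fold or more and none higher. The fusogen genes Mymk (myomaker) and Mymx (myomixer) read 7.64 and 4.54 with BTZ, against 11.65 and 6.80 untreated. Mymx was thus under the floor with BTZ. Tmem182, a membrane protein of muscle, read 6.84 with BTZ against 10.89 untreated. The cadherin gene Cdh15, found on satellite cells and myoblasts, read 7.44 with BTZ against 9.68 untreated.

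At the neuromuscular junction 11 of 16 genes were lower by 2-fold or more and none higher, and the median was -1.19. The fetal receptor subunit gene Chrng read 5.71 with BTZ, 10.65 with TNF-α and 10.99 untreated, 38.7-fold lower with BTZ. On this array it lay near both growth medium arrays used beside it, 5.58 with BTZ and 5.25 untreated. Chrnd, the delta subunit, read 6.99 with BTZ against 10.42 untreated. Chrna1, the alpha subunit, read 10.25 with BTZ against 11.92 untreated. All 3 of these receptor subunits were lower with BTZ. The neuregulin receptor gene Erbb3 read 4.86 with BTZ against 8.80 untreated. The agrin receptor gene Lrp4 read 7.22 with BTZ against 10.60 untreated. Rapsn, which clusters the receptor, read 6.42 with BTZ against 9.03 untreated.

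MyoD and myogenin bind E-boxes, and the form CAGCTG, which reads the same on both strands, lay in 37.6% of the 93 windows of the receptor and contractile genes, against 16.3% of all windows. The MEF2-type motif, CTA and TAG with any 4 bases between them, lay in 12.9% of them, against 3.69% of all windows. Across genes at least 2-fold lower with BTZ the E-box share was 22.5%, and across those at least 2-fold higher it was 14.4%. For the MEF2-type motif these shares were 3.97% and 3.36%. The Chrng window holds 2 such E-boxes, in capitals, that begin 155 and 132 bases before the start. It is chr1:87205561-87205860 on the plus strand.
Chrng: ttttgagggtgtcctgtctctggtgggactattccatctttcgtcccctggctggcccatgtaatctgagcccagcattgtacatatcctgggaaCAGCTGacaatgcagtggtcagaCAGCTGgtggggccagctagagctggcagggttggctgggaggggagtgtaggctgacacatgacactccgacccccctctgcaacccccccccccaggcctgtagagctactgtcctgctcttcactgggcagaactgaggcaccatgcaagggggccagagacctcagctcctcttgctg
Chrng had the lowest difference of its list, -5.27.

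Many genes of the contractile apparatus were lower with BTZ. Of 10 measured myosin light chains and binding proteins 7 were above the floor, and each of the 7 was lower by 2-fold or more. Their median was -1.82. Mylpf, the fast regulatory light chain, read 7.49 with BTZ and 11.14 untreated. Of the 8 myosin heavy chains 4 were lower: embryonic Myh3 read 7.28 with BTZ against 11.05 untreated. Myh1 read 6.81 with BTZ against 10.16 untreated. Myh4 read 3.96 with BTZ against 7.81 untreated. Myh2 and Myh8 were near the floor on both arrays, at 4.45 and 4.82 with BTZ against 5.26 and 5.59 untreated.

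Actins, troponins and tropomyosins had the lowest median of the 48 lists, -1.95, with 17 of 22 lower by 2-fold or more and none higher. The cardiac actin gene Actc1 read 4.68 with BTZ and 9.16 untreated, 22.3-fold lower and under the floor. Of the troponins that switch on contraction, Tnni2 read 5.76 with BTZ against 9.69 untreated. Tnnt2 read 9.06 with BTZ against 12.70 untreated. These are the subunits that inhibit and that anchor the complex. Tnnt3 read 7.72 with BTZ against 11.32 untreated. The Z-disc actinin Actn3 read 8.18 with BTZ against 11.53 untreated. Differences within this list ran from -4.48 for Actc1 to 0.35 for Tpm3, a tropomyosin also found outside muscle.

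The scaffold of the Z-disc and M-band held 4 of the 8 genes of the muscle lists that were at least 2-fold higher, beside 15 of its 28 that were lower. The M-band genes Myom1 and Myom2 read 4.17 and 7.12 with BTZ, against 8.15 and 10.10 untreated. The titin gene Ttn read 11.08 with BTZ against 11.87 untreated. The 4 higher genes included Nrap, a scaffold of early myofibrils, at 10.12 with BTZ and 8.60 untreated. Filamin C, Flnc, read 12.05 with BTZ against 10.72 untreated. Xirp2 was higher by 2.34 as the mean of probe sets at 0.56 and 4.12, and the calsarcin gene Myoz1 read 5.70 with BTZ against 4.67 untreated. In growth medium Flnc was also higher with BTZ, by 1.71, and Nrap by 0.85.

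Of 24 genes of calcium handling and excitability 18 were lower by 2-fold or more and none higher. The calcium pump Atp2a1 of fast fibres read 5.28 with BTZ, 9.18 with TNF-α and 9.87 untreated. Srl, which binds calcium in the reticulum, read 6.11 with BTZ against 10.50 untreated. Triadin, Trdn, read 6.21 with BTZ against 9.31 untreated. These proteins pump, store and release calcium. Tmem38a, a cation channel of the reticulum, read 7.50 with BTZ against 9.90 untreated. Of 13 genes of the dystrophin complex and caveolae 8 were lower. Cavin4 read 7.55 with BTZ against 10.46 untreated. The sarcoglycan gene Sgca read 6.78 with BTZ against 9.47 untreated. Dystroglycan, Dag1, read 9.09 with BTZ against 11.56 untreated.

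Of 21 muscle energy genes 10 were lower by 2-fold or more and none higher. Enolase 3, Eno3, read 8.35 with BTZ and 11.81 untreated. Myoglobin, Mb, read 5.35 with BTZ against 8.73 untreated. The glycogen phosphorylase Pygm read 6.16 with BTZ against 8.71 untreated. The other 11 genes did not pass 2-fold. Among them was the glycolytic gene Gapdh, at 11.19 with BTZ against 11.47 untreated. Of 14 atrophy ligase and FoxO genes 2 passed 2-fold on the higher side and 3 on the lower side. The ligase gene of atrogin-1, Fbxo32, read 7.05 with BTZ and 8.95 untreated. MuRF1, Trim63, read 5.62 with BTZ against 6.73 untreated. Other F-box genes went the other way, Fbxo40 at 7.71 with BTZ against 6.39 untreated, and Fbxo30 at 8.49 with BTZ against 7.42 untreated. The list median was -0.08.

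**Figure D3:**
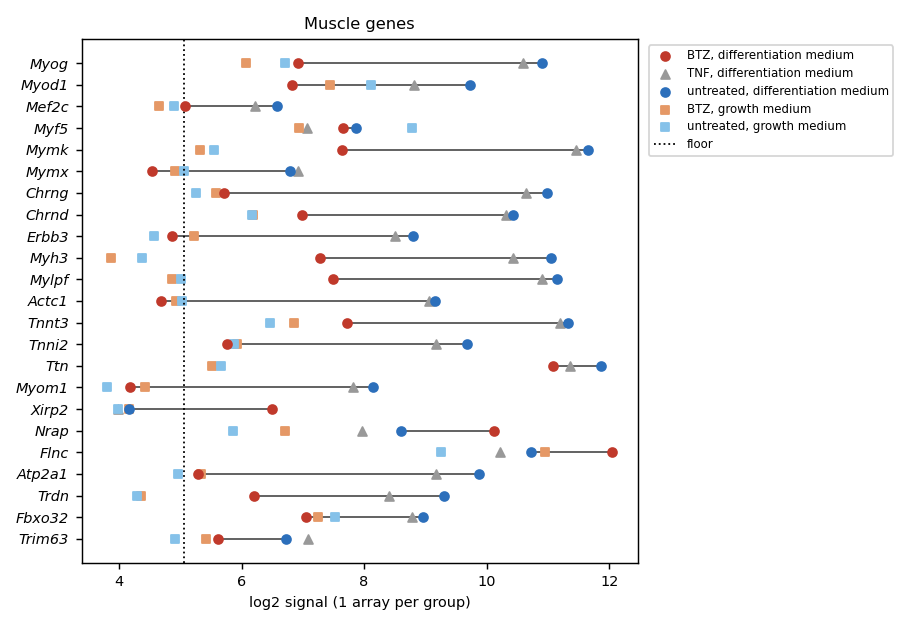
Log2 signal of 23 muscle genes on 5 arrays, 1 point per array, with a line joining the BTZ and untreated arrays of differentiation medium. BTZ points (red circles) lie left of the untreated ones (blue circles) for all genes but Xirp2, Nrap and Flnc, and Chrng, Actc1 and Atp2a1 lie close to the growth medium points (squares). The TNF-α points (grey) include Myog at 10.59.

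The muscle microRNA gene Mir133b was the lowest of 152 microRNA genes above the floor, a group chosen after its values were seen. It read 4.29 with BTZ and 8.41 untreated, a difference of -4.12. The signal of a whole-transcript array may come from the primary transcript and is not a measure of the mature RNA. Of these genes 5 were higher by 2-fold or more and 11 lower, smaller shares than the 6.05% and 8.91% of all genes. Next lowest was Mir23a, at 5.20 with BTZ and 8.09 untreated, whose neighbour on chromosome 8, Mir27a, was lower by 1.58. Mature forms of some of the genes lower with BTZ are given with the seed, bases 2 to 8, in capitals, from RefSeq (GRCm38.p6). The seeds of the forms shown differ.
mmu-miR-133b-3p: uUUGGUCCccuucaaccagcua
mmu-miR-23a-3p: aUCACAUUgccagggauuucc
mmu-miR-27a-3p: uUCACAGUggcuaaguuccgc
mmu-miR-532-3p: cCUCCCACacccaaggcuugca
mmu-miR-362-3p: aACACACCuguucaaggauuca
Of the 16 microRNA genes past 2-fold 15 had a mature sequence in the table. The 25 mature forms listed for them had 25 different seeds. The list is not complete, since for Mir23b and Mir532 the form from the other arm of the precursor is missing. A seed shared with a missing form would not be seen here. Mir532 and Mir362, both on the X chromosome, were lower by 2.24 and 2.18.

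Most genes of mitosis were lower with BTZ. Of 29 genes 19 were lower by 2-fold or more and none higher, and the median was -1.19, and 12 of the 19 were under the floor with BTZ. Anillin, Anln, a scaffold of the cleavage furrow, read 4.19 with BTZ, 8.71 with TNF-α and 7.32 untreated. Cyclin A2, Ccna2, read 5.14 with BTZ and 7.71 untreated. Topoisomerase 2, Top2a, read 4.37 with BTZ against 6.89 untreated. Anln and Top2a were under the floor with BTZ, and Ccna2 lay just above it. The kinetochore gene Ndc80 read 3.87 with BTZ against 6.36 untreated. In growth medium, where the untreated level of Anln was 10.74, the same list was lower in 29 of 29 genes with a median of -2.32.

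Of 28 replication genes 5 were lower and none higher. E2f2 read 5.22 with BTZ and 7.22 untreated. The primase gene Prim1 read 4.33 with BTZ against 6.25 untreated. The reductase subunit Rrm1 read 8.09 with BTZ against 9.58 untreated. Of 15 D cyclins and inhibitors, Ccnd3, the D cyclin of differentiated muscle, read 6.45 with BTZ against 9.02 untreated, and Cdkn1b, the p27 inhibitor, was lower by 1.13. Ccnd1 was the only one at least 2-fold higher, at 8.96 with BTZ, 9.11 with TNF-α and 7.86 untreated.

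The CHR element of genes repressed in resting cells, spelled TTTGAA and searched on both strands, lay in 74.1% of the 27 mitotic windows, against 17.9% of all windows. Windows of all genes at least 2-fold lower with BTZ held it in 14.7%. For genes above the floor the share was 12.1%, and for genes at least 2-fold higher it was 11.8%. The Anln window holds 2 matches in capitals, 1 on each strand, that begin 21 and 28 bases after the start. It is chr9:22389157-22389456 on the minus strand.
Anln: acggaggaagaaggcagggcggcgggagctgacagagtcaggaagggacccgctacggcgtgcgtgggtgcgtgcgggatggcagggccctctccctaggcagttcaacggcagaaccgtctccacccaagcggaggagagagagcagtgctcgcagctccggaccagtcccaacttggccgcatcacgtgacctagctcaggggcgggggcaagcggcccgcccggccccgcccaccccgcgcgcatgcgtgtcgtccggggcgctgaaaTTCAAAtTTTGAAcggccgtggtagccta
Both matches lie in the transcribed part of the window.

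Genes of the Id, HES and Notch families, many of which hold back differentiation, were lower in 8 of 19 cases and higher in 1. Id3 read 5.44 with BTZ and 8.43 untreated. Hes1 read 6.86 with BTZ against 8.53 untreated. Hes6 read 6.53 with BTZ against 8.26 untreated, and 6.61 in untreated growth medium, so untreated it was higher in differentiation medium. Id2 read 7.09 with BTZ against 8.31 untreated. The Notch ligand gene Jag1 was the higher one, at 8.16 with BTZ against 7.03 untreated. Its relative Jag2 was lower, at 5.92 with BTZ against 7.09 untreated. The other 10 genes of these families did not pass 2-fold.

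In the insulin-like growth factor axis 7 of 17 genes were at least 2-fold lower. Igf1, a growth signal for muscle, read 5.23 with BTZ, 7.91 with TNF-α and 9.56 untreated. Igfbp5, the binding protein induced in differentiation, read 8.33 with BTZ and 11.98 untreated. The imprinted genes Peg3 and Mest read 7.76 and 6.32 with BTZ, against 10.55 and 8.10 untreated. Igfbp3 went the other way, at 8.19 with BTZ against 6.94 untreated.

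Matrix genes were among the lowest. Of 17 collagens 8 were lower by 2-fold or more and none higher. Col3a1 read 8.70 with BTZ and 11.89 untreated. Col1a1 read 7.57 with BTZ against 10.41 untreated. Col12a1 read 8.71 with BTZ against 11.74 untreated. Of 24 glycoproteins and proteoglycans 15 were lower. Asporin, Aspn, read 4.05 with BTZ, 4.36 with TNF-α and 8.54 untreated, so both treated arrays were under the floor. Decorin, Dcn, read 6.77 with BTZ and 11.17 untreated. Thrombospondin 1, Thbs1, read 9.68 with BTZ against 12.92 untreated.

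The nidogens, which link laminin to collagen IV in basement membranes, went in opposite directions. Nid1 read 12.59 with BTZ and 10.02 untreated, the only gene of its list past 2-fold on the higher side. Nid2 read 7.41 with BTZ against 11.46 untreated. The same held in growth medium, with differences of 1.24 for Nid1 and -2.38 for Nid2. Matrix proteases were divided, with 4 of 17 higher and 5 lower. Gelatinase B, Mmp9, read 7.12 with BTZ and 5.17 untreated. Mmp13 read 5.72 with BTZ against 4.14 untreated. Other proteases were lower. The membrane protease gene Mmp14 read 9.31 with BTZ against 11.92 untreated. Adamts5, which cuts aggrecan, read 6.13 with BTZ against 9.86 untreated. Urokinase, Plau, read 6.71 with BTZ against 9.52 untreated, while its receptor gene Plaur was among the highest with BTZ.

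Cholesterol synthesis was lower in 14 of 17 genes and higher in none, with a median of -1.40. Squalene synthase, Fdft1, read 7.37 with BTZ and 10.56 untreated, 9.12-fold lower. Hmgcs1, of the first step to mevalonate, read 8.39 with BTZ against 11.03 untreated. The demethylase gene Cyp51 read 7.31 with BTZ against 9.71 untreated. These enzymes act at early and late steps of the pathway. The feedback protein gene Insig1 read 8.15 with BTZ against 10.46 untreated. Srebf2, which encodes the activator of these genes, read 8.33 with BTZ against 10.32 untreated. The sterol regulatory element, spelled TCACNCCAC and searched on both strands, lay in 1 of 16 windows of these genes, 6.25%, against 1.24% of all windows. A CCAAT box lay in 13 of the 16, 81.2%, against 37.4% of all windows, and also in 70.4% of the mitotic windows. Windows of all genes at least 2-fold lower with BTZ held the CCAAT box in 38.0% and the sterol element in 0.828%.

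Of 23 growth factors and cytokines 3 were higher by 2-fold or more and 7 lower. The chemokine gene Cxcl12 read 7.12 with BTZ and 9.65 untreated. Bmp4 read 7.64 with BTZ against 10.05 untreated. Tgfb3 read 7.96 with BTZ against 10.35 untreated. Both genes encode factors of the TGF-β family. Tgfb1 read 7.60 with BTZ against 9.81 untreated. Hgf, which activates satellite cells, read 5.18 with BTZ against 7.27 untreated. The higher genes were the epidermal growth factor relative Ereg, by 1.57, Vegfc, by 1.30, and the chemokine Ccl2, at 7.51 with BTZ, 12.70 with TNF-α and 6.09 untreated.

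Lists of genes that every cell uses were not all quieter than all genes, of which 6.05% were at least 2-fold higher and 8.91% lower. Only the respiratory chain list lay below both shares. Of 26 ribosomal protein genes 2 were at least 2-fold higher, the median was 0.49, and 24 were above their untreated level by any amount. Of 23 respiratory chain genes 1 was lower, Cox7b, with a median of -0.20. Housekeeping genes had a median of -0.02, with members on both sides. Of these 11 genes 1 passed 2-fold on each side. Hprt read 10.71 with BTZ and 9.22 untreated. The transferrin receptor gene Tfrc read 6.94 with BTZ against 8.73 untreated, and Tbp was higher by 0.98.

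**Figure D4:**
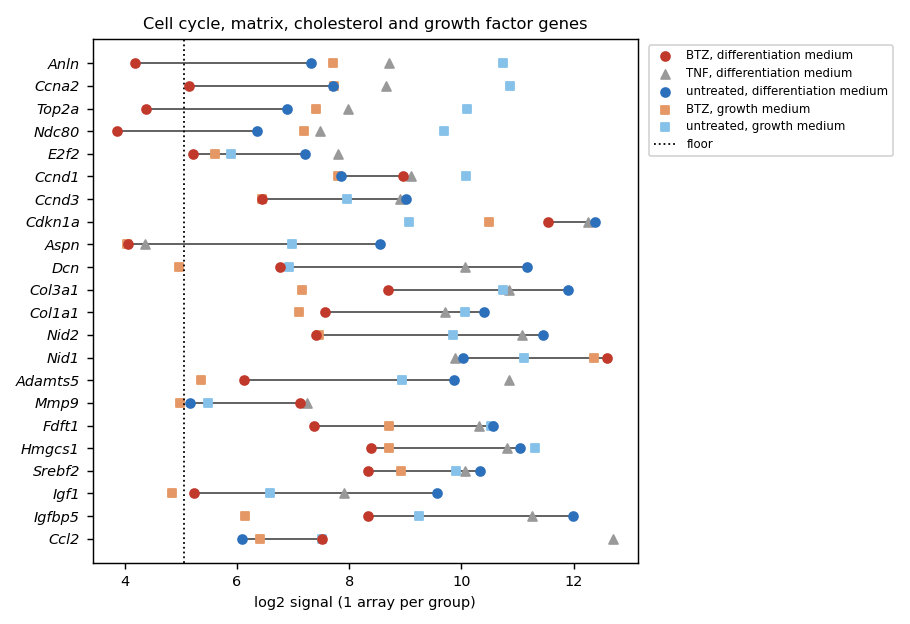
Log2 signal of 22 genes of the cell cycle, matrix, cholesterol synthesis and secreted factors on 5 arrays, 1 point per array, with a line joining the BTZ and untreated arrays of differentiation medium. BTZ points (red circles) lie left of the untreated ones (blue circles) for all genes but Ccnd1, Nid1, Mmp9 and Ccl2. Anln, Ccna2 and Top2a have their highest plotted points in untreated growth medium (light blue squares).

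The same dose of BTZ in growth medium, whose 2 arrays take no part in the comparison in differentiation medium, shows which of these differences were shared. There 681 genes were higher by 2-fold or more and 841 lower, 4.99% and 6.16% of all genes. The 370 genes higher in both media were 44.8% of those in differentiation medium and 54.3% of those in growth medium. The 478 lower in both were 39.3% and 56.8%. Over 13652 genes, which are not independent replicates, the differences in the 2 media had a correlation of 0.66. Directions were opposite past 2-fold in both media for 5 genes, Ccl2 and Ccnd1 higher in differentiation medium, and Adam4, Tmem38a and Tnnc1 lower in it.

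The lists of the proteasome rings and cap, chaperones, collagens, matrix glycoproteins and cholesterol synthesis had medians of the same sign in both media. For the 20S beta ring they were 0.93 in differentiation medium and 0.99 in growth medium, and for cholesterol synthesis -1.40 and -1.22. Contractile and calcium lists had medians near 0 in growth medium: actins, troponins and tropomyosins had medians of -1.95 and -0.06, light chains -1.82 and 0.07, and calcium handling -1.65 and -0.16. Their starting levels differed: in untreated cells the median levels of these 3 lists were 9.75, 8.97 and 8.98 in differentiation medium, and 6.34, 5.51 and 6.14 in growth medium, nearer to the floor. The genes leaning most to lower values in differentiation medium were Chrng, Atp2a1 and Myom1, whose differences in the 2 media were -5.27 and 0.32, -4.59 and 0.38, and -3.98 and 0.63.

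On the higher side, amino acid supply and NRF2 genes had medians of 1.05 and 1.52 in differentiation medium and 0.09 and 0.44 in growth medium. Cth read 7.55 with BTZ and 4.39 untreated in differentiation medium, and 6.04 with BTZ and 6.07 untreated in growth medium. Nqo1 read 8.03 with BTZ and 5.97 untreated in differentiation medium, and 8.65 with BTZ and 9.52 untreated in growth medium. Ccnd1 read 8.96 with BTZ and 7.86 untreated in differentiation medium, and 7.80 with BTZ and 10.08 untreated in growth medium. For all 3 genes untreated cells in growth medium stood above untreated cells in differentiation medium, so the starting levels differed, and with 1 array per group the difference between media has no test.

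**Figure D5:**
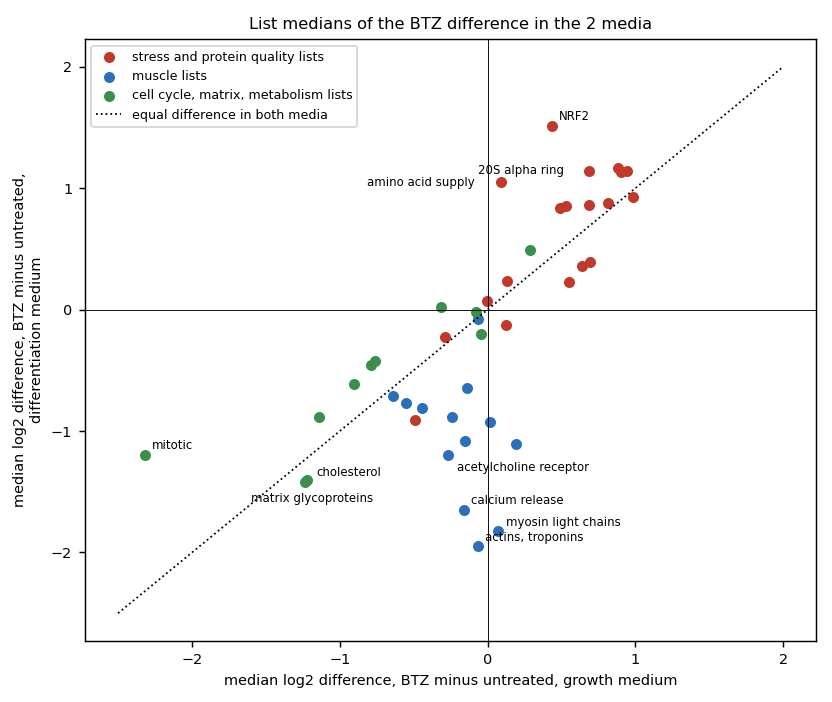
Each point is a gene list, with the median log2 difference of BTZ minus untreated in differentiation medium on the vertical axis and in growth medium on the horizontal axis, and the dotted line marks equal medians. Contractile and calcium lists (blue) lie below the line near 0 in growth medium, amino acid supply and NRF2 lie above it, and mitotic genes reach -2.32 in growth medium.

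TNF-α at 50 ng/ml in differentiation medium shares its untreated array with the BTZ comparison, so only values are set side by side. With TNF-α 2.89% of genes passed 2-fold, 2.01% higher and 0.879% lower. For the 20S alpha ring the medians were 1.14 with BTZ and 0.16 with TNF-α, for NRF2 genes 1.52 and 0.13, for actins, troponins and tropomyosins -1.95 and -0.31, for mitotic genes -1.19 and 0.97, and for cholesterol synthesis -1.40 and -0.15. The immunoproteasome pair gave -0.23 and 1.99. Car3 read 5.17 with BTZ, 7.02 with TNF-α and 10.33 untreated, and thus lay low on both treated arrays.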

How the data were processed

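RNA from 6 cultures of C2C12 cells was measured on 6 arrays, 1 per group. The deposited values, 1 per probe set and array, are log2 signals as judged from their range, since the labels name no scale. How the authors summarised, background-corrected and normalized them is not given in the sources used here. Per the labels' protocols, total RNA was extracted with TRIZOL and its integrity was checked on a Bioanalyzer. Scanner files and detection calls were not used.

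Of 41345 probe sets 23521 had 1 gene symbol in the platform annotation, 1814 several and 16010 none. Entrez numbers of 23328 were found in the RefSeq table. Probe sets with 1 symbol were averaged per gene, which gave 22180 genes, 1082 of them from several probe sets. Genes were kept where the highest of the 6 arrays reached the median of all values, 5.06. Differences of 2 arrays were taken as BTZ minus untreated, and those of at least 2-fold were counted, using Python 3.11.15, pandas 2.3.3 and limma 3.58.1 under R 4.3.3 for quantile normalization. The 2-fold count was checked with known shifts and noise put on the untreated array, a check of the arithmetic only. With 1 array per group no test was run and no error exists, and the number of arrays limits the precision.

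The comparison, the gene lists and the motifs were chosen with earlier results of these data known. The microRNA and small nucleolar RNA host gene lists and the sequences shown were chosen after values were seen. Named genes are the 12 highest and 12 lowest, up to 6 per list with the largest difference, members past 2-fold against their list's sign, a short set of regulators and cell type markers, and the 3 that lean most to either medium. Genes with opposite directions in the media were named after their values were seen. Alternatives were a shift to equal medians, quantile normalization, no filter, a filter at the 75th percentile and the highest probe set per gene.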

Additional observations from a re-analysis of the deposited data

Results flagged for a closer look

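Genes past 2-fold in both media but in opposite directions were singled out for a closer look. Ccl2, a chemokine, was higher with BTZ by 1.41 in differentiation medium and differed by -1.11 in growth medium. Ccnd1, cyclin D1, was higher by 1.10 in differentiation medium and differed by -2.27 in growth medium. Tmem38a, a cation channel of the sarcoplasmic reticulum, differed by -2.40 and 1.15 in the same order, and Tnnc1, the slow troponin C, by -2.38 and 1.21. With 1 array per group the difference between the media was not tested for any of them.

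Probe sets with no gene named take no part in the gene counts. Of 8413 of them above the floor 1201, or 14.3%, were at least 2-fold higher with BTZ in differentiation medium and 334, or 3.97%, at least 2-fold lower. They were singled out because the higher side exceeds the lower one here, while among named genes the shares were 6.05% and 8.91%. What these probe sets measure was not analysed here.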

How the results depend on the processing

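No paired analysis was possible because each group has 1 array. The 4 counts of genes past 2-fold (higher and lower in differentiation medium, higher and lower in both media) stayed within 1.5 times under all 5 alternatives. Of the list medians 235 stayed within 1.5-fold and 4 moved further, all with the filter at the 75th percentile: -3.77 for myosin heavy chains, -2.28 for collagens, 1.20 for macrophage markers and 1.37 for neuronal and Schwann cell markers. That filter leaves fewer genes in each list. Of the values of named genes 1492 stayed and 8 moved, all with the highest probe set per gene in place of the mean: Car3 -5.84, Ereg 2.35, Mef2c -2.41, Psma5 1.83, Rrm2 -2.48, Slc7a11 5.04, Sspn -2.17 and Xirp2 4.12. The cause of these disagreements between probe sets was not tested. Metallothioneins lower were 2 after quantile normalization, and ribosomal protein genes higher were 1 with the stricter filter and 4 with the highest probe set. Medians near 0 changed sign for the proteasome assembly, immediate early, atrophy and matrix protease lists. The median difference of all genes was -0.03 with equal medians and -0.05 after quantile normalization, and the share of higher genes among those past 2-fold was 37.7% and 33.8%, against 40.5% as reported. No direction past 2-fold was reversed. Signals under the floor may hold little more than background, and whether differences there are compressed was not tested.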

Other observations

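Host genes of small nucleolar RNAs, a group picked after its values were seen, included some of the higher transcripts with BTZ. Of 15 measured 13 were above the floor, and 6 of these were at least 2-fold higher and none lower, while 4 differed by less than 2-fold below 0, the lowest by -0.71. The median was 0.94 over the 13 and 0.23 over all 15, and 6.05% of all genes were at least 2-fold higher. Snhg12 read 9.20 with BTZ and 6.19 untreated in differentiation medium. Snhg15 read 9.38 with BTZ against 6.49 untreated. Snhg5 read 9.61 with BTZ against 7.76 untreated, and Snhg6 read 9.75 with BTZ against 8.34 untreated. In growth medium Snhg12 and Snhg15 were higher with BTZ by 3.10 and 2.01, and Snhg6 by 0.18. These genes carry small nucleolar RNAs in their introns.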
